A study of Mus musculus with 2 samples.

Results

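The small leucine-rich proteoglycans examined here are 10 genes of extracellular matrix proteins, *Dcn*, *Bgn*, *Fmod*, *Lum*, *Prelp*, *Epyc*, *Ogn*, *Omd*, *Aspn* and *Chad*. They were picked out by gene symbol, and all 10 are among the 23628 genes listed in each library. The material was 2 RNA-sequencing libraries of *Sox9* GFPHi chondrospheres, named here replicate 1 and replicate 2, which are of 1 condition. The mice were homozygous for a *Sox9* IRES-EGFP reporter, so that GFP marks cells that transcribe *Sox9*, and femoral heads were taken from pups at postnatal day 7. GFP-high cells that lacked the endothelial, red cell and leukocyte surface markers CD31, Ter119 and CD45 were sorted and grown at low density in methylcellulose under low oxygen, in medium with serum and with FGF2, BMP4, IGF1, LIF and TGF-β1 added. Pups were harvested separately according to the methods, but the labels do not tie the libraries to pups, and how many colonies entered a library is not given in the sources used here. The spread between the libraries may therefore be technical or biological.

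These proteins share a core of leucine-rich repeats that binds collagen fibrils and limits or guides their growth. Decorin, biglycan and epiphycan can carry chondroitin or dermatan sulfate chains, fibromodulin, lumican, osteoglycin and osteomodulin can carry keratan sulfate, and chondroadherin is an adhesion protein of the cartilage matrix. Decorin, lumican, osteoglycin and asporin are best known from tendon, skin, ligament and other fibrous tissues. Chondroadherin, epiphycan, prolargin and fibromodulin are abundant in cartilage, although fibromodulin and prolargin are also found in tendon. Biglycan is common to both kinds of tissue, and osteomodulin belongs to bone.

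Levels are given in CPM, in which the counts of each library are scaled to the same total, and between genes they are compared only after division by the length of all annotated exons in kilobases (CPM per kb of exon). The libraries hold about 43300000 and 42100000 reads on genes, estimated from the step between their lowest values, and 3 reads correspond to 0.0693 CPM in replicate 1 against 0.0712 in replicate 2. The chondrocyte genes were present, with 252 and 279 CPM of *Sox9*, 148953 and 100682 CPM of *Col2a1*, and 14170.2 and 12002 CPM of *Acan* in replicates 1 and 2. Of 10 markers of fibroblasts and tendon, 4 reached a mean of 1 CPM, and the whole list summed to 59.8 and 59.4 CPM. These 4 were *Scx* (35.3 and 30.9 CPM), *Mkx* (15.2 and 16.4 CPM), *Ly6a* (6.73 and 8.31 CPM) and *Pdgfra* (2.03 and 2.71 CPM). *Tnmd* and *Pi16*, which mark tendon cells and fibroblasts, were listed at 0 in both libraries. No marker of endothelial cells, red cells, fat or muscle reached a mean of 1 CPM. The leukocyte marker *Cd68* did, with 2.56 and 2.40 CPM.

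*Bgn* was among the members with nearly equal CPM in both libraries. Here its window before the transcription start site is set beside those of *Chad*, *Ogn*, *Omd* and *Aspn*. These 4 are all the members with such a window that were called more than 2-fold lower in replicate 2. The bases of these 5 windows are printed. Each is the 250 bases before the RefSeq start site on GRCm38.p6, 5′ to 3′ on the strand of the gene, which is the plus strand for all 5. They lie at chrX:73483351-73483600, chr11:94564797-94565046, chr13:49607765-49608014, chr13:49582212-49582461 and chr13:49544193-49544442. Capitals mark matches, on either strand, of the TATA box letters TATAAA, the SOX core letters ACAAAG and ACAATG, the RUNX core letters TGTGGT and the AP-1 letters TGANTCA.
*Bgn*: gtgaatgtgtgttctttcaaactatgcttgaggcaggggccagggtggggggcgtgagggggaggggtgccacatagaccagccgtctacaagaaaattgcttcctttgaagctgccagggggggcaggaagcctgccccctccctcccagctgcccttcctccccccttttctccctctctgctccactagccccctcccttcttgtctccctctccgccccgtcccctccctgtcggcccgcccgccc
*Chad*: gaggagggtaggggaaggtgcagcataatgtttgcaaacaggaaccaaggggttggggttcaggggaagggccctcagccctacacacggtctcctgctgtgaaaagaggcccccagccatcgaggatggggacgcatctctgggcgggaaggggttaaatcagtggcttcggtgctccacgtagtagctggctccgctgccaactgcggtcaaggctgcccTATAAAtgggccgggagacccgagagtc
*Ogn*: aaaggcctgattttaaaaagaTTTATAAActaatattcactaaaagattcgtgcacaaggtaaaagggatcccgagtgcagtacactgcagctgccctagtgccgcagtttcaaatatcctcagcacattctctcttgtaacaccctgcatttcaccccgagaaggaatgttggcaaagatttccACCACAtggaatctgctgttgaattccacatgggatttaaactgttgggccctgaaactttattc
*Omd*: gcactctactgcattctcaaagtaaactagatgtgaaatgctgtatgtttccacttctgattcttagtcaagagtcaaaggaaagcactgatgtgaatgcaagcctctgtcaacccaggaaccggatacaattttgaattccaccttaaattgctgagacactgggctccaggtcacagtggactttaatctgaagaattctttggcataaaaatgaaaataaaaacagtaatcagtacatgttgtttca
*Aspn*: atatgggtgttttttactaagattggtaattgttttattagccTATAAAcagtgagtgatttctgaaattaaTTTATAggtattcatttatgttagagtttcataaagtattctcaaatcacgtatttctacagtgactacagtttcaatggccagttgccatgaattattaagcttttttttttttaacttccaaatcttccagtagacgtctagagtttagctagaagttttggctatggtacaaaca

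The reference table held such a window for 8 of the 10 members, all but *Dcn* and *Lum*. Those of *Epyc*, *Fmod* and *Prelp* are not printed, although *Fmod* and *Prelp* also stayed within 2-fold between the libraries. TATAAA was present before *Chad*, *Ogn* and *Aspn* and before none of the other 5, *Omd* included, and 12.4% of all 32851 windows of this length hold it. In *Chad* it lies from 28 to 23 bases before the start site, while the matches of *Ogn* and *Aspn* lie more than 170 bases before it. *Ogn* also held a RUNX core, found in 14.0% of all windows. None of the 8 held the AP-1 letters, found in 6.75% of all windows. The SOX core letters occurred only before *Epyc* among the 8 members, and ACAAAG is found in 16.5% and ACAATG in 10.7% of all windows. *Epyc* had windows at chr10:97643818-97644067 and chr10:97646853-97647102, whereas each other member had a single window. More of its bases were therefore searched. Both windows of *Epyc* held ACAATG, and only the latter held ACAAAG. The G and C content ran from 30.0% in *Aspn* to 64.4% in *Bgn*, against a median of 52.4% over all windows. These matches describe letters in a short window, and binding of a factor was not measured.

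Biglycan, the class I proteoglycan of cartilage and bone as well as of fibrous tissue, was transcribed at 9750.2 CPM in replicate 1 against 9739 in replicate 2, averaging 9745 ± 7.73 CPM (SD, n = 2). *Bgn* lies on chromosome X of GRCm38 from 73483602 to 73495933, with 8 exons in its longest coding transcript. Per kb of exon it stood at 1599 and 1597 CPM, rank 28 and rank 20 of the 22967 genes with a known length. Decorin, its closest relative in the family and a regulator of fibril diameter, was far lower and differed between the libraries. *Dcn* (chromosome 10, bases 97479609 to 97518143) had 879 CPM in replicate 1 against 267 in replicate 2, or 150.5 and 45.8 CPM per kb of exon. Asporin, whose N-terminus carries a run of aspartate in place of a chain, had the lowest level of the class. *Aspn* (chromosome 13, bases 49544443 to 49567565) was measured at 6.35 and 0.878 CPM, which rest on about 275 and 37 reads.

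Within each library *Bgn* exceeded *Dcn* per kb of exon, by 10.6-fold in replicate 1 and 34.8-fold in replicate 2. The mean log2 ratio of 4.27 was larger than its SD of 1.21 between the libraries. The exons annotated for *Bgn* and *Dcn* cover 6099 and 5838 bases, whereas their longest coding transcripts have 2419 and 1758. With the coding transcript as the length, the folds were 8.06 and 26.5.

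Of the class II members fibromodulin, which carries keratan sulfate, stood highest. *Fmod* (chromosome 1, bases 134037254 to 134048277) had 3462 CPM in replicate 1 against 2934 in replicate 2, or 1047 and 888 CPM per kb of exon, at ranks 33 and 37. Lumican, best known from the cornea and skin, is thought to bind the same region of collagen as fibromodulin. *Lum* (chromosome 10, bases 97565128 to 97572703) had 495 and 239.6 CPM, or 202 and 97.9 CPM per kb of exon. Per kb of exon, *Fmod* exceeded *Lum* by 5.18-fold in replicate 1 and 9.07-fold in replicate 2, and the mean log2 ratio of 2.78 was larger than its SD of 0.57.

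Prolargin, a class II protein that anchors basement membranes and pericellular matrix to collagen, was the only member with a higher CPM in replicate 2. *Prelp* (chromosome 1, bases 133910304 to 133921414) had 69.8 CPM in replicate 1 against 83.0 in replicate 2, or 19.3 and 23.0 per kb of exon. Osteomodulin, which is made by osteoblasts and binds integrin, was at a similar level. *Omd* (chromosome 13, bases 49582462 to 49592822) had 64.0 CPM in replicate 1 against 20.5 in replicate 2, or 28.5 and 9.12 per kb of exon. Of the 50-base stretches of its longest coding transcript, 3.77% also occur in transcripts of other genes, so a small share of its reads is uncertain. The share was 0.295% for *Bgn* and 0 for the other 8 members.

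Of the class III members, *Ogn* lay in the middle of the 10 and *Epyc* at the lower end. Osteoglycin, also called mimecan, came to 104 CPM in replicate 1 against 30.3 in replicate 2. *Ogn* lies on chromosome 13 from 49608046 to 49624501, and these levels equal 40.5 and 11.8 CPM per kb of exon. Epiphycan, a proteoglycan of the growth plate and epiphyseal cartilage, had the lowest level of the 10. *Epyc* (chromosome 10, bases 97644068 to 97682454) was measured at 1.22 and 0.688 CPM, about 53 and 29 reads, which exceeds the 3-read level in each library. Its mean of 0.956 CPM left it as the only member below 1 CPM.

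Chondroadherin, the class IV member, which binds collagen II and the integrin α2β1 on chondrocytes, was at the other end. *Chad* (chromosome 11, bases 94565047 to 94569127) had 6362 CPM in replicate 1 against 1891 in replicate 2. Per kb of exon these were 3787 and 1125 CPM, at rank 7 and rank 30 of all genes. *Chad* therefore stood above *Bgn* in replicate 1 and below it in replicate 2.

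**Figure D1:**
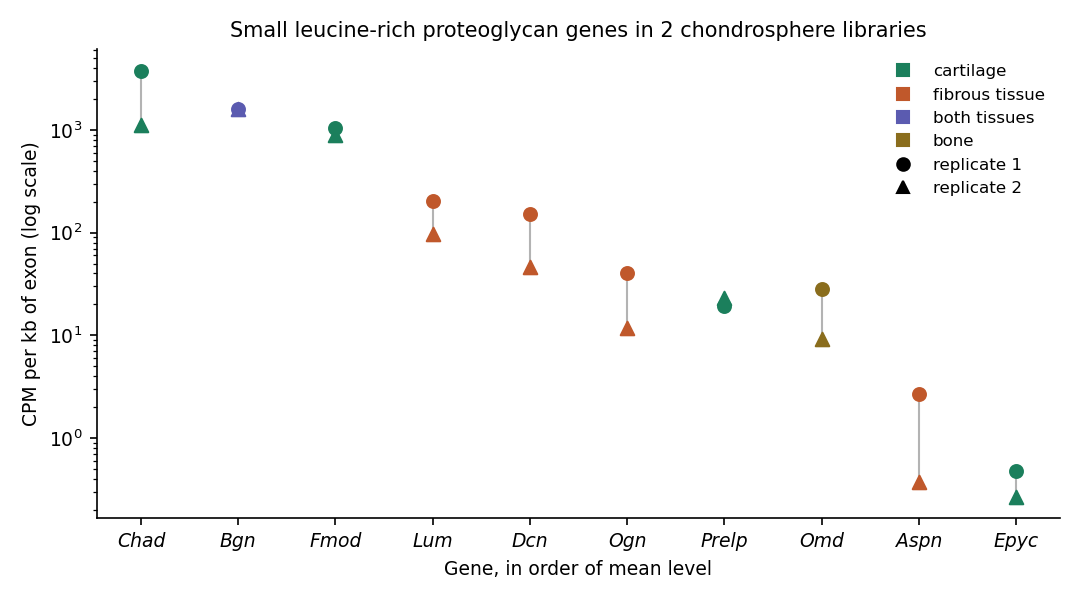
Level of each of the 10 genes in CPM per kb of exon on a log axis, with circles for replicate 1, triangles for replicate 2, a grey line between them and colours for the tissue a gene is best known from. *Chad*, *Bgn* and *Fmod* sit at or above 888 CPM per kb of exon in both libraries, while *Epyc* sits at 0.478 and 0.269.

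Ordered by mean log2 level per kb of exon, the members ran *Chad*, *Bgn*, *Fmod*, *Lum*, *Dcn*, *Ogn*, *Prelp*, *Omd*, *Aspn* and *Epyc*. Neighbours in this order that did not differ beyond their spread were *Chad* and *Bgn* (mean log2 ratio 0.37, SD 1.24), *Ogn* and *Prelp* (0.05, SD 1.43), and *Prelp* and *Omd* (0.38, SD 1.33). Each of these pairs changed order between the libraries. *Aspn* and *Epyc* kept their order, although the mean log2 ratio of 1.42 barely exceeded the SD of 1.40. Divided by the length of the longest coding transcript instead, *Bgn* came before *Chad* and *Dcn* before *Lum* in both libraries, so the order within these pairs depends on the length used. On that scale *Bgn* and *Chad* (mean log2 ratio 0.96, SD 1.24) and *Chad* and *Fmod* (1.01, SD 1.07) did not differ beyond their spread.

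The 10 members together took 21193 CPM in replicate 1 against 15207 in replicate 2, or 2.12% and 1.52% of each library. *Bgn*, *Chad* and *Fmod* made up 92.4% and 95.8% of these sums. Per kb of exon, *Chad* was 55.1% of the summed level in replicate 1 and 29.6% in replicate 2, whereas *Bgn* was 23.2% and 42%. The leading gene depends on the scale, since *Bgn* led both libraries in plain CPM and also per kb of the longest coding transcript, with 41.5% against 39.0% for *Chad* in replicate 1 and 63.0% against 17.6% in replicate 2.

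The members of cartilage (*Chad*, *Fmod*, *Prelp*, *Epyc*) were set beside those of fibrous tissue (*Lum*, *Dcn*, *Ogn*, *Aspn*) within each library. Summed per kb of exon, the cartilage members reached 4854 CPM against 396 for the fibrous members in replicate 1, and 2036 against 156 in replicate 2, which is 12.3-fold and 13.1-fold. Per kb of the longest coding transcript the sums differed by 6.59- and 7.96-fold. This rests on *Chad* and *Fmod*, each of which exceeded every fibrous member in both libraries. *Prelp* was below *Lum* and *Dcn* in both libraries, and *Epyc* was below all 4 fibrous members in both. Of the 16 pairs of a cartilage and a fibrous member, the cartilage gene was the higher in 9 pairs in replicate 1 and in 10 in replicate 2. The difference of the group medians was 0.87 on the log2 scale in replicate 1 and 2.62 in replicate 2, with a mean of 1.74 and an SD of 1.24. Its direction changed with the assignment of the genes, being -1.98 with *Fmod* counted among the fibrous members and -0.57 with only *Epyc* and *Chad* as cartilage members. With *Bgn* counted among the fibrous members it was 0.78, from -0.08 in replicate 1 and 1.64 in replicate 2, and with *Bgn* among the cartilage members it was 4.50. The levels of the groups overlapped in both libraries.

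Between the libraries, all 9 members averaging 1 CPM or more had a lower log2 ratio than the median gene. Over the 12631 genes with such a mean, replicate 2 stood above replicate 1 by a median of 0.30 on the log2 scale, and ratios are given relative to it, so that a value of 0 is the ratio of the median gene. A gene is called different where this centred log2 ratio is past 1 in either direction, that is, more than 2-fold. Called lower in replicate 2 were 6 of the 9 members, against 6.06% of all genes tested. None of the 9 was called higher, against 7.43% of all genes. Without centring these shares were 3.71% lower and 11.4% higher, with the counts of members again 6 and 0, and the log2 ratio of *Prelp* was then 0.25. Their median centred log2 ratio was -1.94, and the SD over all genes was 0.83. With 2 libraries of 1 condition there is no replicate of this difference, so it describes these libraries and no test was made.

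*Aspn* had the largest difference of the members, with a centred log2 ratio of -3.03 and a counting error of 0.25. *Ogn*, *Chad*, *Dcn* and *Omd* lay close to each other at -2.08, -2.05, -2.02 and -1.94, and *Lum* was at -1.35. Without centring, these 5 genes were 3.43-, 3.36-, 3.29-, 3.12- and 2.07-fold higher in replicate 1. *Fmod* (-0.54), *Bgn* (-0.31) and *Prelp* (-0.06) stayed within 2-fold, and all 3 had nearly equal CPM in both libraries. *Epyc*, below the filter, was at -1.05 with a counting error of 0.33. All 4 fibrous members were thus called lower, while of the cartilage members *Chad* was called lower and *Fmod* and *Prelp* were not.

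**Figure D2:**
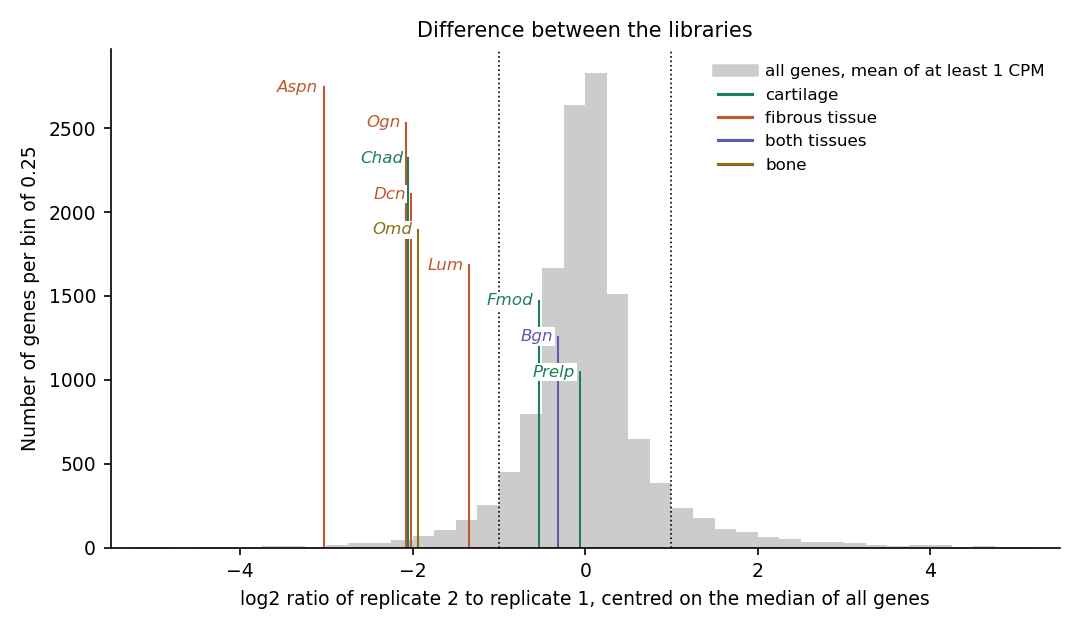
Number of genes (vertical axis) at each log2 ratio of replicate 2 to replicate 1, centred on the median gene, for the 12631 genes averaging 1 CPM or more (grey), with 9 members as coloured lines whose height has no meaning and dotted lines at 2-fold. *Aspn*, *Ogn*, *Chad*, *Dcn*, *Omd* and *Lum* lie left of -1, and *Fmod*, *Bgn* and *Prelp* lie between -1 and 0.

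Ratios among *Chad*, *Dcn*, *Ogn* and *Omd* hardly moved although the level of each was more than 3-fold apart between the libraries. *Chad* exceeded *Dcn* per kb of exon by 25.2-fold in replicate 1 and 24.6-fold in replicate 2, an SD of 0.02 on the log2 scale. *Chad* exceeded *Ogn* by 93.4- and 95.1-fold, and *Omd* by 133- and 123-fold. *Dcn* exceeded *Ogn* by 3.71- and 3.87-fold. Per kb of the longest coding transcript, *Chad* exceeded *Dcn* by 7.58- and 7.40-fold and *Dcn* exceeded *Ogn* by 12.3- and 12.9-fold, so the size of ratios with *Dcn* depends on the length, while both lengths gave ratios alike between the libraries. These 4 genes were set together because their ratios between the libraries were alike, so the steady proportions restate those ratios. They are the gene of a cartilage adhesion protein and 3 genes best known from fibrous tissue and bone. *Bgn* and *Fmod* did not keep their proportions to any of these 4. In bulk RNA, fewer cells that transcribe these genes and less RNA of them per cell cannot be told apart.

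Most members called lower had a transcript of low G and C content, with *Chad* as the exception. The transcripts of *Ogn*, *Omd* and *Aspn* have 34.3% to 36.3% G and C, in the lowest of 10 equal bins of the genes tested, whose median centred log2 ratio was 0.12. *Lum* (41.9%) and *Dcn* (42.8%) fall in the next bin, with a median of 0.07. *Chad*, with 56.7%, falls in a bin with a median of -0.04. *Bgn*, *Fmod* and *Prelp*, which stayed within 2-fold, have 52.5% to 53.8%, in a bin with a median of -0.03. The medians of the 10 bins ran from -0.09 to 0.12. The part of base composition in the differences of single genes was not tested.

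Most members lie in 3 gene clusters, and genes of a cluster differed widely in level in some pairs and little in others. On chromosome 1, *Fmod* exceeded its neighbour *Prelp* per kb of exon by 54.1-fold in replicate 1 and 38.6-fold in replicate 2. *Optc*, the opticin gene of the eye beside *Prelp*, had 0.116 CPM in replicate 1 and 0 in replicate 2. On chromosome 10, *Lum* exceeded its neighbour *Dcn* by 1.34- and 2.14-fold per kb of exon, while the coding transcript length put *Dcn* above *Lum*. *Lum* exceeded *Epyc* by 391- and 318-fold. *Kera*, the keratocan gene of the cornea that lies between *Lum* and *Epyc*, was listed at 0 in both libraries. On chromosome 13, *Ecm2*, *Aspn*, *Omd* and *Ogn* follow each other, and all 4 were called lower in replicate 2, against 6.06% of all genes tested. *Ogn* exceeded its neighbour *Omd* per kb of exon by 1.42- and 1.29-fold. *Ecm2*, which encodes a matrix protein with leucine-rich repeats, had 8.04 and 1.61 CPM and a centred log2 ratio of -2.55. *Cenpp*, a centromere gene on the opposite strand that spans this cluster, had 0.412 and 0.484 CPM and shares at most 7 exonic bases with any of the 4.

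**Figure D3:**
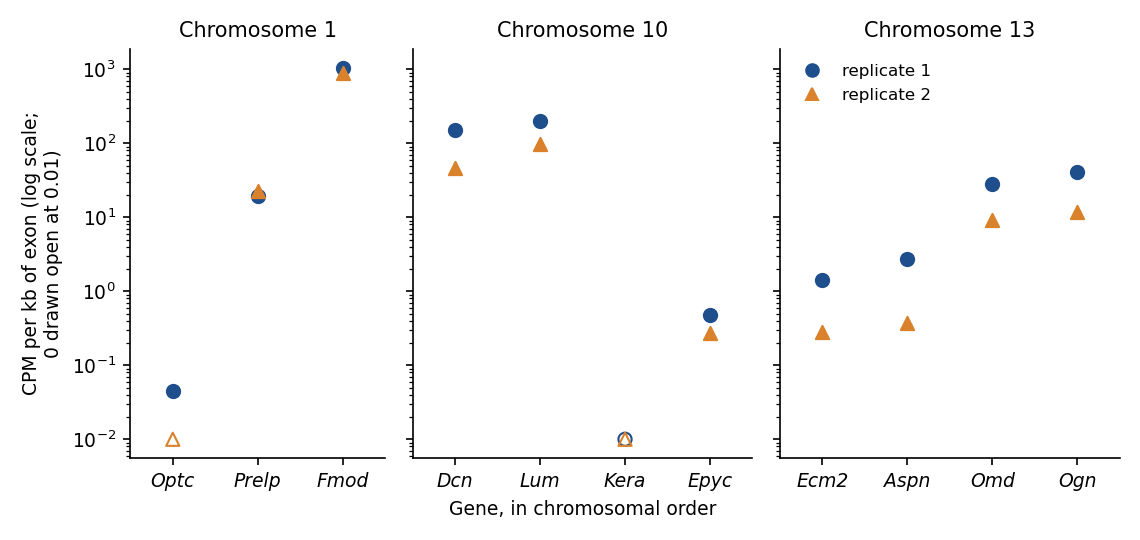
Levels in CPM per kb of exon (log axis) of the family genes in 3 clusters, in chromosomal order, with circles for replicate 1, triangles for replicate 2 and open symbols for genes listed at 0. The chromosome 13 genes are all lower in replicate 2, while on chromosome 1 the circle and the triangle of each of *Prelp* and *Fmod* nearly coincide.

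Of 8 further family genes, 4 averaged 1 CPM or more, and 3 of these were called lower in replicate 2, against 6.06% of all genes tested. *Podn*, which encodes podocan, had 50.0 and 13.7 CPM and a centred log2 ratio of -2.16. *Chadl*, the chondroadherin-like gene of cartilage, had 118 and 65.0 CPM and a centred log2 ratio of -1.16. It shares 1023 exonic bases with *L3mbtl2* on the opposite strand, and whether counting used strand is not given in the sources used here. *Tsku*, encoding tsukushi, an inhibitor of growth factor signalling, had 31.0 and 42.2 CPM and was within 2-fold at 0.14. *Optc*, *Nyx* and *Podnl1* reached at most 0.162 CPM in either library.

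The enzymes that build the sugar chains of these proteins had medians near that of all genes. Over all genes tested, 7.43% were called higher and 6.06% lower. Of 21 genes for chondroitin and dermatan sulfate chains, 20 averaged 1 CPM or more, with a median centred log2 ratio of 0.12. *Ust*, a sulfotransferase that acts on uronic acid, was called higher at 1.27 (6.40 and 19.3 CPM), and none was called lower. *Xylt1*, which starts the chain, had 906 and 599 CPM, and *Chst13*, a 4-O-sulfotransferase, had 0.0924 CPM in replicate 1 and 0 in replicate 2. The 7 genes for keratan sulfate were mixed. Of the 5 averaging 1 CPM or more, *Chst2* (2.05) and *B4galt1* (1.46) were called higher and *Chst5* (-2.82) lower, with 4.02 and 21 CPM, 52.0 and 177 CPM, and 4.0 and 0.617 CPM. *B3gnt7*, which extends keratan sulfate in cartilage, had 0.0924 CPM in replicate 1 and 0 in replicate 2. The tyrosine sulfotransferases *Tpst1* (30.4 and 25.6 CPM) and *Tpst2* (24.0 and 36.3 CPM), which can sulfate the N-termini of fibromodulin and osteomodulin, stayed within 2-fold.

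The collagens that bind these proteins differed by type. For comparison, 7.43% of all genes tested were called higher and 6.06% lower. All 6 cartilage fibril collagen genes lay below the median gene, with a median centred log2 ratio of -0.76, and *Col9a1* was called lower at -1.09 (1881 and 1087 CPM). Of 7 collagens of fibrous tissue, *Col14a1*, whose product decorin binds, was called lower at -4.96 with 62.2 CPM in replicate 1 and 2.37 in replicate 2. *Col1a1* (1166 and 584 CPM) was also called lower at -1.30, and *Col12a1* (76.7 and 219 CPM) was called higher at 1.21. *Col1a2*, with the highest mean CPM of this list, had 2714 and 2619.7 CPM. Collagen VI, to which biglycan and decorin bind, went the other way, with *Col6a1* (271 and 787 CPM) and *Col6a3* (646 and 2299 CPM) called higher at 1.23 and 1.53, and *Col6a2* at 0.91. Without centring, the 3 collagen VI genes were 2.32- to 3.56-fold higher in replicate 2.

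Of 12 genes of ligands and receptors that these proteins bind, 1 was called higher and 0 lower, against 7.43% and 6.06% of all genes tested. That gene was *Itga2*, the integrin subunit that binds chondroadherin, at 3.08, with 1.99 CPM in replicate 1 against 21.8 in replicate 2. *Lrp1*, an endocytic receptor of decorin, had 1076 and 1692 CPM, and *Met*, a receptor tyrosine kinase that decorin binds, had 7.0 and 7.64 CPM. Of 12 genes of proteases and a protease enhancer that act on matrix proteins of this kind, 9 averaged 1 CPM or more. Called higher were 4 of these 9 and called lower 1, against the same 7.43% and 6.06% of all genes. *Mmp3* (1.09 and 8.13 CPM), *Tll1* (8.06 and 42 CPM), *Mmp13* (8.96 and 44.8 CPM) and *Mmp14* (84.6 and 234 CPM) were called higher, at 2.49, 2.06, 2.0 and 1.16. *Htra1*, a serine protease that cleaves decorin and fibromodulin, was called lower at -2.04 with 273 and 81.9 CPM. *Mmp2* had 372 and 477 CPM, and *Tll2* had 0.0462 CPM in replicate 1 and 0 in replicate 2.

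**Figure D4:**
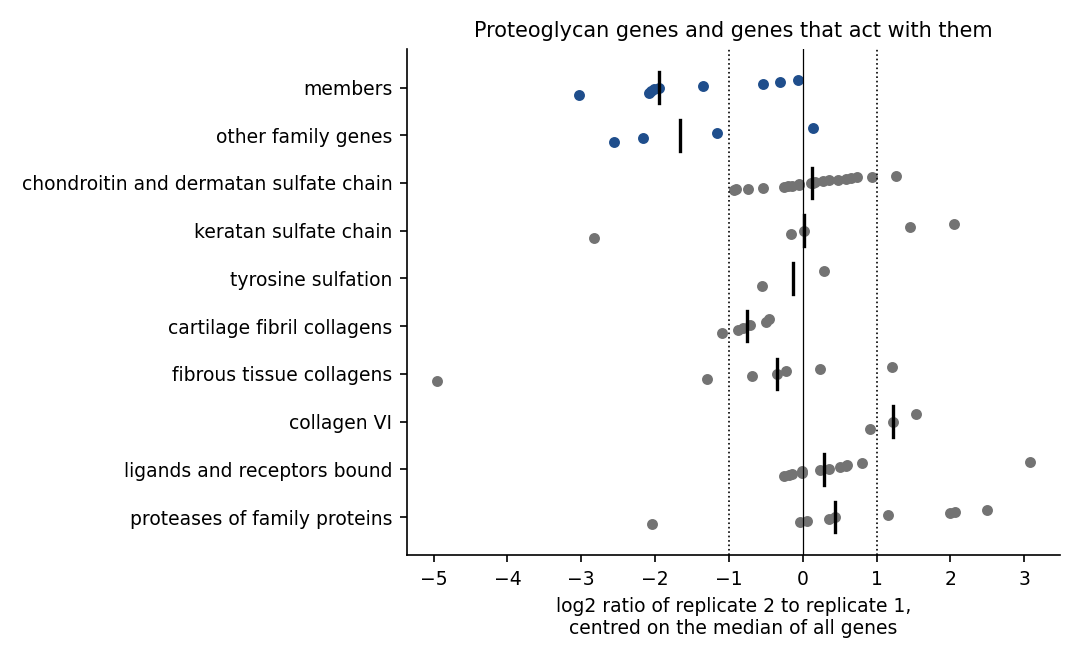
Centred log2 ratio of replicate 2 to replicate 1 for each gene averaging 1 CPM or more in the family (blue) and in 8 related gene lists (grey), with a black bar at each median and dotted lines at 2-fold. The 10-gene family and its further members have medians of -1.94 and -1.66. The medians of the chain enzymes are 0.12 for chondroitin and dermatan sulfate and 0.02 for keratan sulfate, whose genes run from -2.82 to 2.05.

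Genes listed as markers of bone cells or of chondrocytes also differed between the libraries. In bulk RNA the cells that transcribe them are not known, so their levels do not show that bone cells were present. The shares called over all genes tested were 7.43% higher and 6.06% lower. All 5 of the 9 osteoblast and osteocyte markers averaging 1 CPM or more lay above the median gene, with a median of 1.44, and the whole list reached 6.38 CPM in replicate 1 against 55.0 in replicate 2. *Dmp1*, an osteocyte gene, accounted for most of that with 0.116 and 40.4 CPM, and *Sp7* (1.96 and 6.81 CPM) and *Alpl* (0.462 and 1.92 CPM) were also called higher. *Mepe* and *Sost* were listed at 0 in both. Of the 8 chondrocyte markers, *Matn1* (902 and 29.2 CPM), *Matn3* (741 and 53.1 CPM) and *Snorc* (259 and 128 CPM) were called lower, and the list summed to 166914 and 114596 CPM. Most of that sum is *Col2a1* (148953 and 100682 CPM), so it says little about the other chondrocyte markers. Of the list, 7 lay below the median gene and 1, *Hapln1* (396 and 544 CPM), above it. The summed fibroblast and tendon markers were nearly equal in both libraries. That sum rests mostly on *Scx*, a tendon transcription factor (35.3 and 30.9 CPM), and *Mkx* (15.2 and 16.4 CPM), so it says little about the other markers of the list. The fibrous members summed to 1484 and 538 CPM. The part of the osteocyte and chondrocyte markers in the differences of the proteoglycan genes was not tested.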

How the data were processed

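Poly(A) RNA of 2 libraries was sequenced as single-end reads from a stranded kit. The authors aligned the reads with STAR 2.7.3a to GRCm38 and GENCODE M25, quantified genes with the E/M method of Partek Flow 10.0.21.0801, and deposited CPM values. Each value carries an offset of 0.0001 CPM, which was subtracted. Of the low values, 65.5% and 64.8% lay within 0.05 steps of a whole number of reads, so whole reads could not be recovered and a count model was not used. Read numbers are therefore approximate, and they and the floor of 3 reads cover counting error only.

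Lengths and coordinates came from GENCODE M21 on GRCm38, which matched 22967 of the 23628 gene names (97.2%). Ratios between libraries used log2(CPM + 0.1), which understates the change of low genes, and were centred on the median of genes averaging 1 CPM or more. Within a library, log2((CPM + 0.1) per kb of exon) was compared. A difference between members exceeded its spread where the mean log2 ratio was larger than its SD between the libraries. No test was made, because the libraries are of 1 condition, and for the same reason no gene was named for a pattern like that of a member. Windows before start sites came from RefSeq. Transcript G and C content was known for 11403 of the 12631 genes tested (90.3%).

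The members, the gene lists and the rule for named genes were chosen with earlier results of these data known. The rule takes all members and further family genes and, of each other list, the genes with the highest and lowest mean and those past 2-fold between the libraries; *Tpst1*, *Tpst2*, *Col6a2* and *Cenpp* and some marker genes were named after their values were seen. *Cd3e*, on the leukocyte list, is not among the genes listed, and *Cd68* was the only gene of that list averaging 1 CPM or more (2.56 and 2.40 CPM). Of the computations, only the ratio between libraries and its scaling were tested on simulated data. Python 3.11.15, numpy 2.4.6, pandas 2.3.3 and matplotlib 3.10.9 were used.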

Additional observations from a re-analysis of the deposited data

How the results depend on the processing

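Alternatives covered the length, the pseudocount, the scaling, the filter on low values, the assignment of genes to tissues and each library alone. The mean difference of cartilage and fibrous members (1.74 on the log2 scale) became -1.98 with *Fmod* counted as fibrous, -0.57 with only *Epyc* and *Chad* as cartilage members, 3.66 with sums in place of medians, 0.78 with *Bgn* counted as fibrous, and 4.50 both with *Bgn* counted as cartilage and without *Epyc*, an alternative chosen after seeing the data. It ran from 0.87 to 2.62 with each library alone. The summed level of the members was 30347 CPM when the total used for scaling omitted the 10 highest genes, which makes every CPM larger, and 15207 to 21193 CPM with each library alone. Of the members, 5 of 8 were called lower with a mean of at least 10 CPM, against 3.35% of all genes, 7 of 10 with no filter, against 11.8%, and 6 of 9 under the other 4 settings of scaling and pseudocount, against 3.71% to 6.21%. None was called higher in any of these settings, against 3.75% to 11.4% of all genes. For single members, 2 of 40 recomputed ratios between the libraries crossed 2-fold, both of *Epyc* (-0.75 without centring and -0.68 with a pseudocount of 1 CPM). The ratio of *Prelp*, within 2-fold, changed sign from -0.06 to 0.25 without centring. Depth limits *Epyc* and *Aspn* most. No paired analysis was possible because both libraries are of 1 condition.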
